A study of Rattus norvegicus with 3 samples.

Results

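The XCL1-XCR1 chemokine axis and the marker genes of dendritic cells were followed through the thymus of Lewis rats (an inbred strain) aged 8 weeks. They were represented by 5 genes chosen by name out of 34034 in the count matrices: Xcl1, Xcr1, Batf3, Clec9a and Siglech. All 5 were found in both matrices. 1 droplet library held stromal cells, sorted as negative for CD45, the surface protein of blood-derived cells. The other held thymocytes released from thymi with collagenase D and DNase I. Each group was 1 library, how many rats gave cells to it is not given in the sources used here, and no animal carried a transgene or treatment per the labels. With 1 library each there are no replicates, so no p-value is given and every interval is a 95% interval that covers counting error only.

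XCL1 is a chemokine secreted by natural killer cells, activated CD8 T cells and, in the mouse thymus, Aire-expressing medullary epithelium. Its receptor XCR1 marks conventional type 1 dendritic cells (cDC1), the cells that cross-present antigen of dying cells to T cells and carry medullary self antigen in the thymus. BATF3 is a transcription factor that cDC1 need, CLEC9A is the lectin with which they sense dead cells, and SIGLECH is a surface lectin of plasmacytoid dendritic cells (pDC), the interferon producers.

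The stromal library held 13226 annotated cells in 29 labels with a median of 9087.5 UMIs per cell (unique molecular identifiers, each counting 1 captured RNA molecule). The thymocyte library held 8546 annotated cells in 25 labels with a median of 3994. Labels are those of the authors, and levels are UMIs per 1000000 UMIs of a label (CPM), given for labels of at least 20 cells unless stated. The libraries shared 38 cell barcodes, of which 28 were annotated in both, and these held 1 stromal and 3 thymocyte-library UMIs of Batf3 and none of the other 4 genes. In all, annotated thymocyte-library cells held 586 UMIs of Xcl1, 176 of Xcr1, 97 of Clec9a, 509 of Batf3 and 634 of Siglech. Annotated stromal cells held 26, 29, 26, 447 and 6 UMIs of the same genes.

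4 of the 5 genes led 1 label of the thymocyte library, meaning that they had 20 UMIs or more there at a CPM 3 times that of the runner-up label or higher. Xcr1, Clec9a and Siglech led B+myeloid, a label of 170 B and myeloid cells, as did 7.97% of the 13929 genes that could be ranked. Xcl1 led AgoSel2, a label of 58 cells, as did 0.0359% of genes, and Batf3 was highest in B+myeloid without reaching 3-fold. Over all labels 8.95% of thymocyte-library genes and 7.2% of stromal-library genes led 1 label. In the stromal library, Batf3 and Xcl1 led the Aire-expressing epithelial label TEC:mTEC2 (1.99% of 17239 genes) and Xcr1 led Myeloid (1.37%). Clec9a and Siglech reached 20 UMIs in no stromal label.

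**Figure D1:**
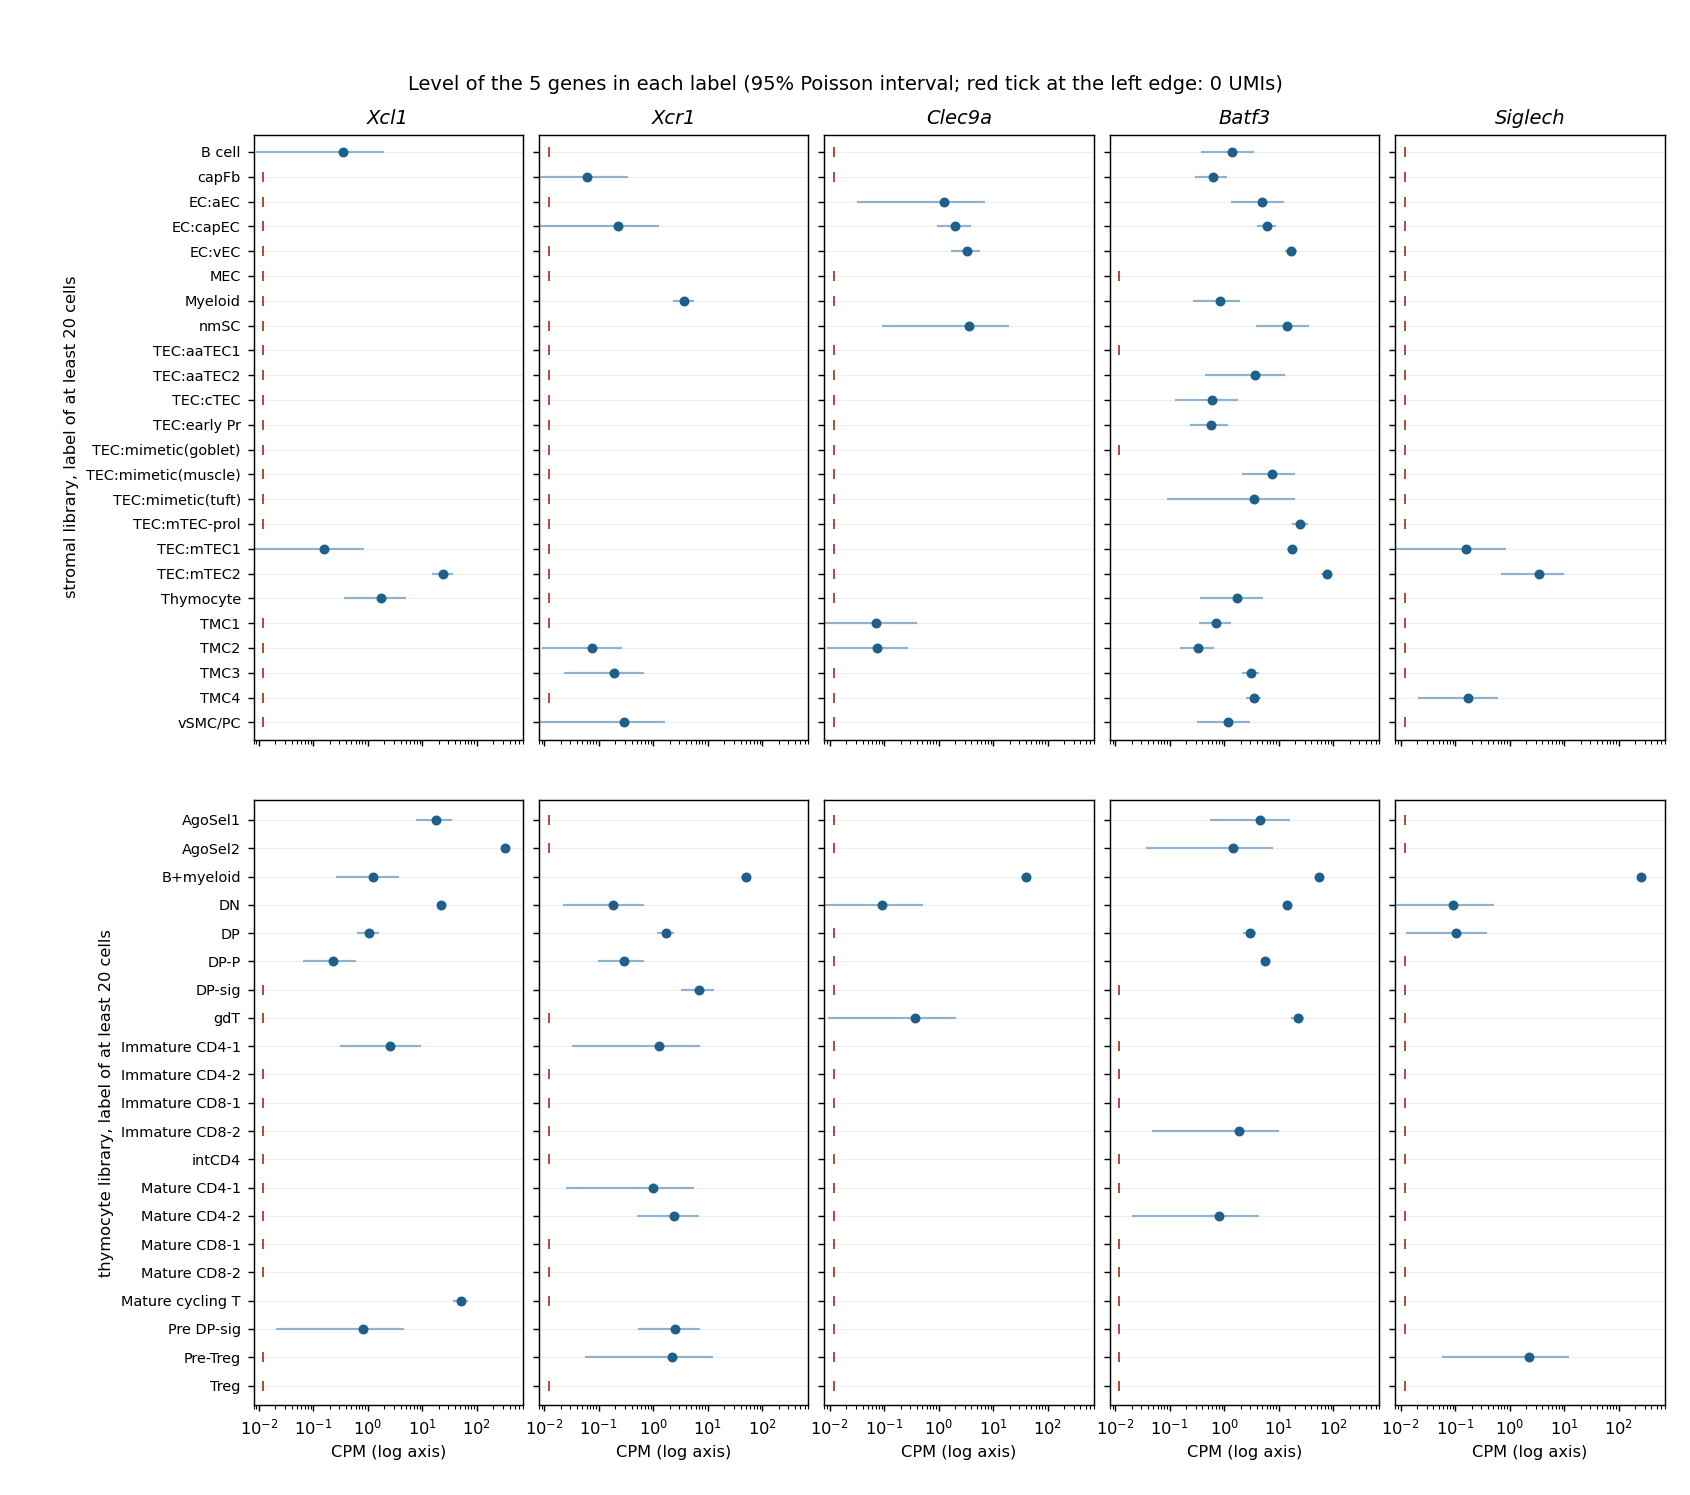
Level of each gene (CPM on a log axis, with its 95% Poisson interval) in each label of at least 20 cells of the stromal library (top row) and of the thymocyte library (bottom row); a red tick at the left edge is a label with 0 UMIs. Xcr1, Clec9a and Siglech peak in B+myeloid at 49.8, 39.7 and 263 CPM, Xcl1 in AgoSel2 at 333 CPM, and Batf3 in TEC:mTEC2 at 76.5 CPM and B+myeloid at 55.6 CPM.

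Xcr1 and Clec9a proved to be detected in the same cells and Siglech in other cells of the same label, so the sequences before the start sites of these 3 genes are set side by side. Each is the 250 bases upstream of the start that the RefSeq table gives for the gene, on the GRCr8 assembly and 5′ to 3′ on the strand of the gene. The study's processing notes name the mRatBN7.2 build, so these windows serve as sequence only. Capitals mark AP-1 (TGANTCA, a site for JUN dimers, which BATF proteins also form) and PU.1 (GAGGAA) letters found on either strand.
Xcr1, chr8:132364657-132364906, minus strand: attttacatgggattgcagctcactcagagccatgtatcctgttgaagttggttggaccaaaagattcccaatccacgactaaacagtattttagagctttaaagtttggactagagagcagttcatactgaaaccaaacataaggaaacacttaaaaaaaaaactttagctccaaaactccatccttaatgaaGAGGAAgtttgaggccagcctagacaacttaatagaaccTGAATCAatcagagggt
Clec9a, chr4:164546073-164546322, plus strand: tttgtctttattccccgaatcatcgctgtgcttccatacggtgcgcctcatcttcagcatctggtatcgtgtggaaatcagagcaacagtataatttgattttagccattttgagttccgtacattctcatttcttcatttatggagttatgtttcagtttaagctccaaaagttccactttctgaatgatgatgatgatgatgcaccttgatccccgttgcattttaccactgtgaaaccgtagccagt
Siglech, chr1:115729241-115729490, plus strand: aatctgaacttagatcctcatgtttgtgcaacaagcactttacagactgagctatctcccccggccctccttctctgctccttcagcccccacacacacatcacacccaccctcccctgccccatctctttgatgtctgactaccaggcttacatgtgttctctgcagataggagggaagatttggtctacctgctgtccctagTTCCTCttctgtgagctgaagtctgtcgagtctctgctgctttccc

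The Xcr1 window held TGAATCA at 17 to 11 bases and GAGGAA at 56 to 51 bases before the start. The Siglech window held the PU.1 letters on the other strand (TTCCTC, 46 to 41 bases) and an E-box, the CANNTG letters that TCF4 and other bHLH factors bind, at 98 to 93 bases. The Clec9a window held an E-box at 193 to 188 bases and neither of the other motifs searched. The Batf3 window (not shown) held PU.1 letters at 143 to 138 bases and E-boxes at 236 to 231 and 30 to 25 bases, and the Xcl1 window held none of these letters. Of 33469 rat windows of the same length, 6.34% held the AP-1 letters, 23.3% PU.1 and 65.5% an E-box, so a match is a description of these letters and not a shown site.

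Xcl1, the ligand, came from few cells. In AgoSel2 it reached 333 CPM (291 to 378, 232 UMIs), and 12 of 58 cells held it. These cells carried 183, 13, 12, 5, 4, 3, 3, 3, 2, 2, 1 and 1 UMIs, so 78.9% of the label's Xcl1 sat in 1 cell. That cell also held 88 UMIs of Ccl4, a chemokine of activated T and natural killer cells, and 16, 9 and 19 UMIs of the T cell receptor genes Cd3d, Cd3e and Cd3g. Without it AgoSel2 stood at 72.4 CPM, still above the 50.8 CPM of Mature cycling T but no longer 3-fold so.

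The next labels held Xcl1 in 2 or 3 cells each. Mature cycling T held 43 Xcl1 UMIs in 2 of 33 cells (42 and 1) at 50.8 CPM, and AgoSel2 stood 6.54-fold above it (4.71 to 9.29). DN, the CD4 and CD8 double-negative thymocytes, held 243 UMIs in 2 of 390 cells (183 and 60) at 22.4 CPM. AgoSel1 held 8 UMIs in 3 of 70 cells (5, 2 and 1) at 18.1 CPM, and the ratio of DN to AgoSel1 was 1.24 (0.62 to 2.91), so these neighbours in the order do not differ beyond counting error. Without its top cell, Mature cycling T stood at 1.25 CPM and DN at 5.56 CPM. Across the library, 5 cells with at least 20 UMIs held 491 of 586 Xcl1 UMIs, or 83.8%.

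The 3 high cells outside AgoSel2 and NKT are described by genes inspected after their Xcl1 was seen. The pair labelled DN and the high Mature cycling T cell had all been placed in the authors' initial DN cluster. They held 34, 20 and 20 UMIs of Cd3e, none of Cd4 and 0, 1 and 0 of Cd8a. Each held Il2rb, the beta chain shared by the IL-2 and IL-15 receptors (9, 10 and 3 UMIs), Pdcd1, which encodes the inhibitory receptor PD-1 (10, 2 and 7), and the proliferation gene Mki67 (16, 13 and 16). Prf1, which encodes perforin, was at 22, 0 and 9 UMIs.

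Natural killer features accompanied Xcl1 in the NKT label, which has 18 cells and so stands outside the order. 2 NKT cells held 23 and 7 Xcl1 UMIs, which put the label at 169 CPM (114 to 242). They were the same 2 of its 18 cells that held Ncr1, the natural killer receptor NKp46. They carried 79 and 83 UMIs of the chemokine gene Ccl5, 28 and 20 of Nkg7 (a cytotoxic granule protein) and 14 and 13 of Klrd1 (CD94), and both had 0 UMIs of Cd3e. The other thymocyte labels held little: DP, the double-positive thymocytes, had 20 UMIs in 19 of 5202 cells (1.06 CPM), no cell above 2.

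Gamma-delta T cells (gdT) and mature CD8 T cells held none. The 128 gdT cells had 0 Xcl1 UMIs, which allows a share of cells with a UMI of up to 2.34% (3 counts of the total). Mature CD8-1 had 0 in 91 cells (up to 3.30%) and Mature CD8-2 had 0 in 27 cells (up to 11.1%). In all, 12 of the 21 thymocyte labels of at least 20 cells held no Xcl1 UMI.

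**Figure D2:**
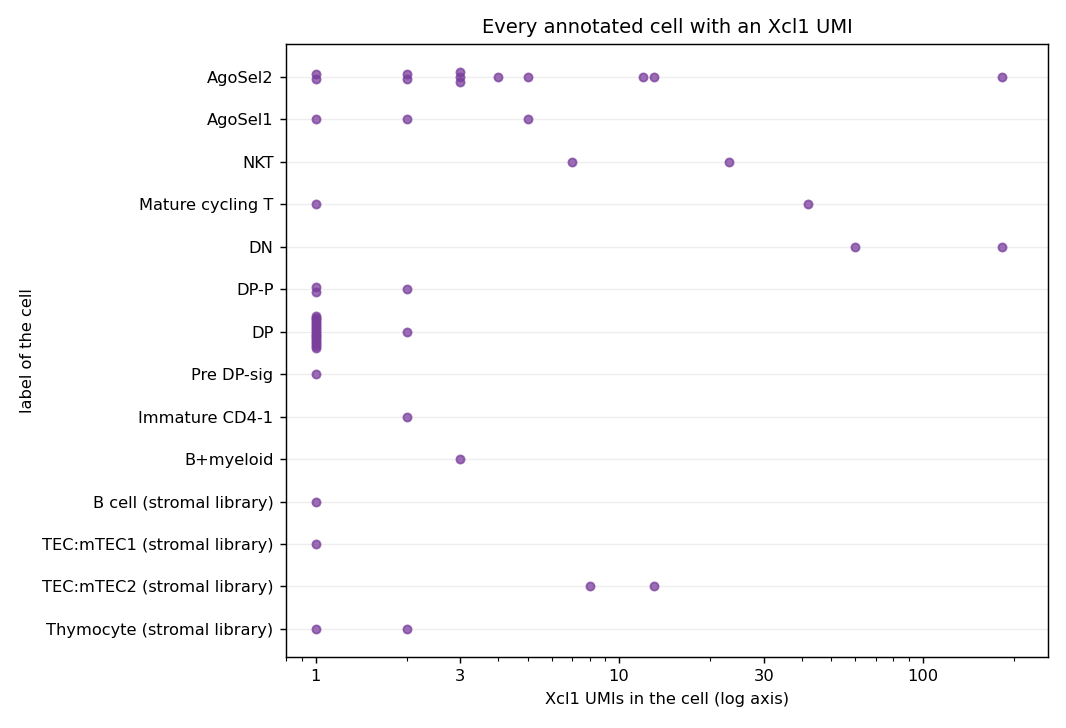
Xcl1 UMIs (log axis) in each annotated cell that held any, by the label of the cell; each point is 1 cell, and equal counts are spread vertically. The AgoSel2 cells span 1 to 183 UMIs, the DN pair stands at 60 and 183, and 18 of the 19 DP cells hold 1 UMI.

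Among AgoSel2 cells, those with Xcl1 were compared with the 46 without it, and the 8 genes of largest ratio were Ccr8, Cks2, Kcnq5, Gpr183, Rapgef5, Tnfrsf9, Cdk5rap2 and Pfdn4, at 8.75 to 2.68. Ccr8, a chemokine receptor of activated and regulatory T cells, stood at 218 against 24.9 CPM, 8.75-fold higher (4.56 to 17.9), with a UMI in 5 of the 12 cells. 1 cell held 25 of its 38 UMIs, and without that cell the ratio was 3.40 (1.45 to 7.95). Cks2, a cell cycle gene, stood at 4.13 and Kcnq5, a potassium channel gene, at 3.58, and without the highest cell of each at 2.63 and 2.37. Tnfrsf9 (4-1BB, an activation-induced costimulatory receptor) was held by 11 of the 12 cells and stood 2.94-fold higher (2.34 to 3.69) on 155 and 158 UMIs. Gpr183, an oxysterol receptor that guides lymphocytes, was 3.37-fold higher (1.87 to 6.10), and 2.43-fold without its highest cell. Zbtb16, the factor of innate-like T cells, had 39 UMIs in 1 of the 12 cells, against 14 UMIs in 2 of the 46. Of all 1390 genes that could be ranked there, 1.08% stood at least 3-fold higher in the Xcl1 cells, and the cells differed in depth (medians of 13487 and 10523 UMIs).

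Other effector genes that activated lymphocytes make were sparse or did not reach 3-fold. From a list of 11 such genes besides Xcl1, 2 had 20 UMIs or more in the Xcl1 cells, and neither reached 3-fold. Ccl4 was at 516 against 214 CPM (ratio 2.41, 1.80 to 3.20), with 88 of its 90 UMIs in 1 cell, and Nr4a1, induced by receptor signalling, at 407 against 306 CPM (ratio 1.33, 0.99 to 1.77). Ifng, Csf2, Il2 and Ccl5 had 0 UMIs in all 58 cells. The median ratio of the pair was 1.87, against 1.08 over all ranked genes.

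Over the 45 labels of both libraries the genes of largest correlation with Xcl1 were Lix1 (Pearson r 0.81), Mcpt3 (0.68), Tigit (0.62), Nfkbib (0.61) and Cideb (0.61), on log2(CPM + 1). Lix1 and Nfkbib were highest in AgoSel2, where 1 cell held most Xcl1 UMIs. Mcpt3 was highest in TEC:mTEC2 and Tigit in AgoSel1. Cideb was highest in the stromal label EC:vEC at 3.59 CPM, where Xcl1 had 0 UMIs. TIGIT is an inhibitory receptor of T and natural killer cells. The points share 2 libraries and differ in depth, so these values only describe these labels.

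In the stroma, Xcl1 stood in TEC:mTEC2, the Aire-expressing medullary epithelium, at 23.99 CPM (14.9 to 36.7, 21 UMIs in 2 of 61 cells). The next label, the thymocytes captured with the stroma, held 3 UMIs (1.75 CPM), a ratio of 13.7 (4.10 to 71.8). The cell with 13 Xcl1 UMIs held 18 of Aire and 7 of the epithelial adhesion gene Epcam, and the cell with 8 held 0 of either, with 3 of Cd3d, 3 of Cd3g and 1 of Ptprc, which encodes CD45. Further genes listed for mTEC2 went both ways in the cell with 8. It held 79 UMIs of the chemokine gene Ccl22 and 54 of the class II gene RT1-Da, but 0 of Fezf2 and 0 of Cd80. The cell with 13 held 1, 321, 5 and 3 of these genes. Both Xcl1 cells held UMIs of the 10 thymocyte genes followed (3 and 7). The level of 0 among cells with fewer than 3 is therefore fixed by the cut, which leaves out both cells, and shows nothing more. Without the higher cell the Xcl1 level was 9.41 CPM. How far thymocyte RNA contributes was not tested.

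Xcr1, the receptor, was found in B+myeloid at 49.8 CPM (41.2 to 59.6, 119 UMIs in 12 of 170 cells). Its 12 cells held 21, 21, 17, 16, 14, 10, 7, 4, 4, 3, 1 and 1 UMIs, so no cell decided the level. DP-sig, another label of double-positive cells, came next at 6.99 CPM on 9 UMIs in 8 of 295 cells, a ratio of 7.13 (3.63 to 15.97). The label's share of cells with Xcr1 was 7.06% (3.70 to 12.0) at a median depth of 11506.5 UMIs. In DN, which should lack it, the share was 0.51% at 23190. After thinning each cell to 1000 UMIs, 5 of 162 B+myeloid cells (3.09%) and 8 of 5164 DP cells (0.16%) kept an Xcr1 UMI.

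The Xcr1 UMIs of double-positive thymocytes were isolated. DP held 32 UMIs in 31 of 5202 cells (1.69 CPM), no cell above 2, and 0 UMIs of Clec9a. None of the 31 cells held Flt3, the dendritic growth factor receptor, and 29 held Rag1, the recombinase gene of thymocytes, as 95.9% of DP cells without Xcr1 did. In the RefSeq table, Fyco1, an autophagy adaptor gene, lies 209 bases from Xcr1 on the same strand, and reads between such close genes can be hard to assign. Fyco1 stood at 61.5 CPM in DP, 66.0 in DP-sig and 66.7 in Pre DP-sig, against 36.0 in B+myeloid, where Xcr1 exceeded it. In the stroma, Fyco1 stood at 31.1 CPM in TMC2 mesenchyme, with 2 Xcr1 UMIs, and at 37.3 CPM in TMC4 mesenchyme, with 0. In the stromal label Myeloid it stood at 24.2 CPM, against 3.64 CPM of Xcr1. The part of Fyco1 in the DP counts was not tested.

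Clec9a showed a narrower pattern. B+myeloid held 95 UMIs in 12 of 170 cells (29, 12, 12, 12, 10, 8, 5, 2, 2, 1, 1 and 1), 39.7 CPM (32.2 to 48.6). The other thymocyte labels together held 2 UMIs, 1 in gdT and 1 in DN, and the ratio to gdT was 108 (18.95 to 4317). Without the cell of 29 UMIs the level was 27.9 CPM.

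In the stroma, Clec9a UMIs lay mostly in endothelium, at low level. The endothelial label EC:vEC held 12 UMIs in 11 of 344 cells, 3.32 CPM (1.71 to 5.79), and EC:capEC 9 UMIs in 9 of 636 cells, 2.02 CPM, a ratio of 1.64 (0.63 to 4.41). The label nmSC stood level with them at 3.53 CPM on 1 UMI. The share of cells with Clec9a was 3.20% (1.61 to 5.65) in EC:vEC at a median depth of 9585.5, against 0.065% in TMC2 mesenchyme at 8269.5, and 2 of 340 thinned EC:vEC cells (0.59%) kept a UMI. None of these cells held Flt3 or Xcr1. In the RefSeq table Clec9a lies 4 bases from Clec1a, an endothelial lectin gene, which stood at 297 CPM in EC:vEC, 189 in EC:capEC and 5.02 in B+myeloid. All 11 EC:vEC cells with Clec9a held Clec1a, as did 82.3% of those without, and 6 of the 9 EC:capEC cells did. How the reads of this close pair were assigned is not given in the sources used here, and the endothelial Clec9a counts are uncertain.

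Within B+myeloid, Xcr1 and Clec9a fell in the same cells. Of the 12 cells with Xcr1, 9 held Clec9a (75.0%, 42.8 to 94.5), against 3 of the 158 cells without Xcr1 (1.90%). The pair thus marked 15 cells, of which 9 held both. Batf3 was in 9 of the 15 and in 16 of the 146 cells with neither Xcr1, Clec9a nor Siglech. Siglech was in none of the 15, and none of the 9 Siglech cells held Xcr1 or Clec9a. Cells thinned to 1000 UMIs gave the same picture with fewer cells: 5 with Xcr1, 2 with Clec9a, both of them among the 5, 8 with Siglech and no cell with Siglech and either of the others.

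**Figure D3:**
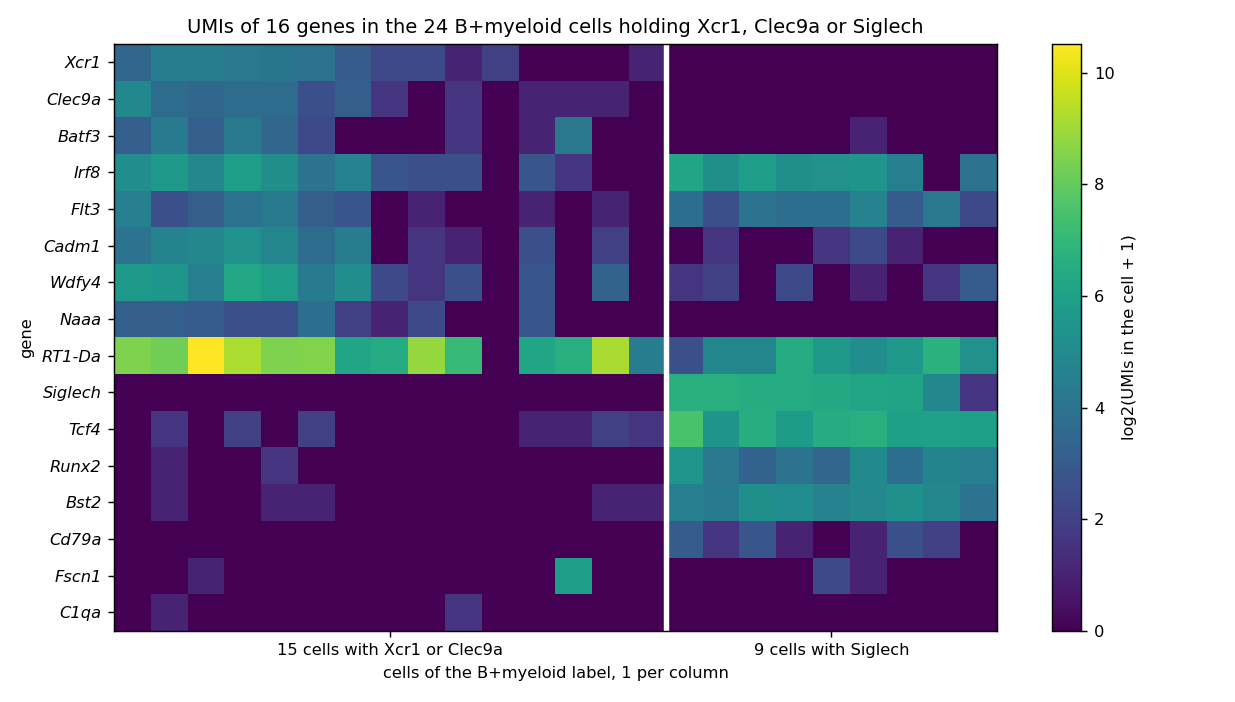
UMIs of 16 genes, as log2(UMIs + 1), in the 24 B+myeloid cells that held Xcr1, Clec9a or Siglech, 1 cell per column. The 15 cells on the left hold Xcr1 or Clec9a with 0 Siglech, and the 9 on the right hold 2 to 99 Siglech UMIs with 0 of both; Tcf4 is at 0 to 3 UMIs on the left and 42 to 180 on the right.

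The 15 cells carried most of the rest of the cDC1 list. They held 349629 UMIs with a median of 23471 per cell, against 10573.5 in the 146 cells with none of the 3 genes. Of 14 listed genes besides Xcr1 and Clec9a, 11 had at least 20 UMIs in the 15 cells, and each of the 11 stood 3-fold or more above the 146 cells, as 7% of the 2442 ranked genes did. The median ratio of the 11 was 6.92, against 1.12 over all ranked genes. The remaining Zbtb46, Nfil3 and Snx22 were under 20 UMIs. A gene low in the 15 cells could not enter the count, and cells were split by UMIs of these same cells, so the count is a description of them.

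Transcription factors and a growth factor receptor of the lineage were among the 11. Batf3 stood at 249 against 24.9 CPM, a ratio of 9.99 (6.90 to 14.7). Irf8, the factor that specifies cDC1, stood at 772 against 108 CPM (ratio 7.12, 5.90 to 8.60) with UMIs in 12 of the 15 cells. Flt3 was at 240 against 33.8 CPM (7.12, 5.06 to 10.1), and Id2, which restrains E proteins, at 243 against 59.8 CPM (4.07).

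Surface and antigen-handling genes of cDC1 were higher as well. Cadm1, an adhesion molecule, was 8.68-fold higher (6.79 to 11.1) and Itgae, the CD103 integrin chain, 9.15-fold (6.09 to 13.9). Wdfy4, needed for cross-presentation, was 6.37-fold higher (5.41 to 7.50) and the double-stranded RNA sensor Tlr3 5.71-fold (2.92 to 11.2) on 21 UMIs in 4 cells. Naaa, a lipid amidase, Rab43, a vesicle GTPase, and Ciita, the class II transactivator, stood at 5.96, 3.72 and 6.92.

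Class II antigen presentation genes were at high level in these cells. RT1-Da, a rat class II alpha chain, reached 14181 CPM against 2949 (ratio 4.81, 4.63 to 5.00), with UMIs in 14 of the 15 cells. 6 of the 10 listed antigen presentation genes stood at least 3-fold higher, as 7% of the 2442 ranked genes did. Among them were RT1-Db1 (5.05), RT1-Bb (5.63), RT1-Ba (4.28) and the invariant chain Cd74 (3.98). Ciita is also on the cDC1 list and is counted in both. Tap1, Tap2 and B2m of the class I route stood at ratios of 2.04, 1.93 and 1.34, and the protease gene Ctss at 0.43.

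B cell and macrophage markers were low there. The summed level of 8 B cell genes was 8.58 CPM in the 15 cells and 6248 CPM in the 146, and that of 12 macrophage genes 169 and 10786 CPM, with C1qa in 2 of the 15 cells. Cd79a, the B cell receptor chain, was at 0 UMIs in the 15. Monocyte and neutrophil genes summed to 7259 CPM in the 15 cells and 10776 in the 146, and the 10 thymocyte genes to 721 and 1376 CPM. 1 cell held 2285 UMIs of the monocyte and neutrophil list, and the other cells 0 to 73. That cell, with 3 Xcr1 UMIs and no Clec9a, Irf8 or RT1-Da, held 704 UMIs of the neutrophil gene S100a8. Another held 17 Batf3 UMIs, 1 of Clec9a and 59 of Fscn1, the fascin of migratory dendritic cells, with 0 of Xcr1 and Wdfy4.

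The genes of largest ratio in the 15 cells, ranked by a rule applied to this label after its counts were seen, were led by Slpi, a protease inhibitor, at 14221 CPM, with 4972 UMIs against 63 in the 146 cells (ratio 408, 318 to 532). Clnk, an adaptor of immune receptors, had 94 UMIs against 1, and Gcsam 79 against 2. Klrc3 (69.8-fold), Tnni2 (44.8), Cst3, which encodes cystatin C (37.4, in 14 of 15 cells, and 20.4 without its highest cell), Rab7b (32.9) and Hs3st1, a heparan sulfate sulfotransferase (23.97, and 15.9 without its highest cell), followed.

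**Figure D4:**
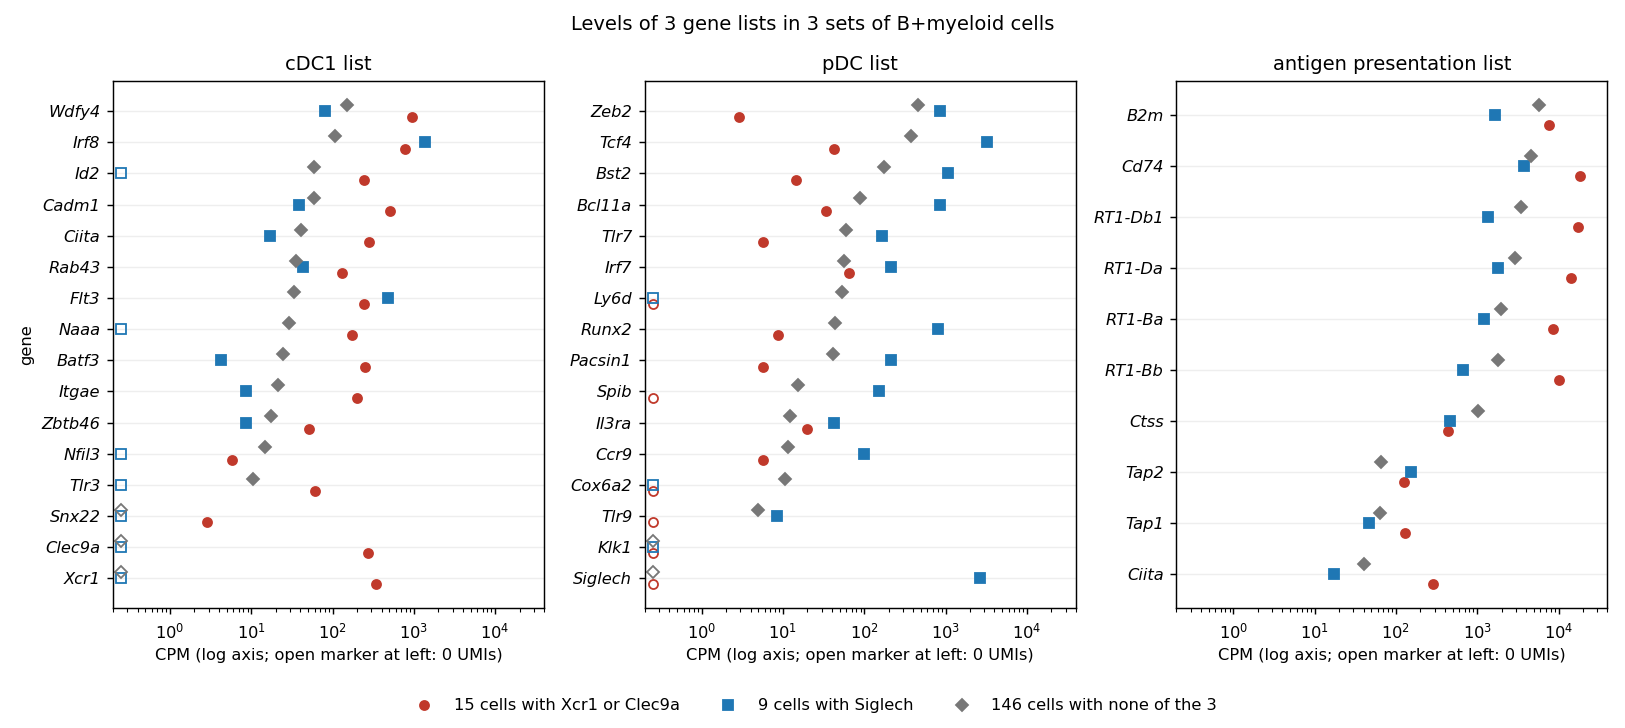
Level (CPM, log axis) of the cDC1, pDC and antigen presentation lists in the 15 B+myeloid cells with Xcr1 or Clec9a (circles), the 9 with Siglech (squares) and the 146 with none of the 3 (diamonds); an open marker at the left edge is 0 UMIs. Batf3 stands at 249 CPM in the first set and 24.9 in the last, and Tcf4 at 3204 CPM in the Siglech cells against 380.

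Siglech, the pDC lectin, was found almost wholly in B+myeloid. B+myeloid held 628 UMIs in 9 of 170 cells, 263 CPM (243 to 284), and the next label, Pre-Treg, held 1 UMI, a ratio of 117 (21.0 to 4645). The 9 cells held 99, 97, 91, 87, 80, 74, 69, 29 and 2 UMIs, so 8 were high and 1 was near the single UMIs seen elsewhere, though that cell held 62 UMIs of Tcf4 and 22 of Runx2. In NKT, 2 cells held 1 UMI each, 1 UMI was in DN and 2 were in DP. The RefSeq table places Nipa1, a magnesium transporter gene, over Siglech on the other strand; it stood at 10.5 CPM in B+myeloid and at 53.3 CPM in the TMC2 mesenchyme, where Siglech had 0 UMIs. Only the cell with 74 Siglech UMIs held Batf3 (1 UMI), and the cell with 69 also held 3 of Xcl1.

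The 9 cells carried pDC genes. Of 15 listed genes besides Siglech, 10 had at least 20 UMIs in them and 8 stood at least 3-fold above the 146 cells, as 12.9% of 2259 ranked genes did. The median ratio of the 10 was 7.30, against 1.43 over all ranked genes. Tcf4, the E protein that specifies pDC, was at 3204 against 380 CPM (8.44, 7.60 to 9.38) with 42 to 180 UMIs in every cell. Runx2, which controls their exit from the marrow, stood at 18.5-fold (14.2 to 24.4), Bcl11a at 9.51 and Spib, an Ets factor, at 9.68 (5.72 to 16.5).

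Other listed genes fell on both sides of the threshold. Bst2 (tetherin) stood at 6.15, the chemokine receptor Ccr9 at 8.48, the interferon regulator Irf7 at 3.76 and Pacsin1 at 5.16. Tlr7, a sensor of single-stranded RNA, was at a ratio of 2.82 (1.90 to 4.11) and Zeb2 at 1.87. Ly6d, Cox6a2 and Klk1 had 0 UMIs in the 9 cells, and Il3ra and Tlr9 had 10 and 2.

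The Siglech cells shared some genes with the other cell types of the organ. Irf8 (12.8-fold, 10.7 to 15.4) and Flt3 (14.1-fold, 10.2 to 19.6, in 9 of 9 cells) of the cDC1 list were high here as well. Cd3g was held by all 9 cells (233 UMIs, 6.49-fold, 5.43 to 7.75) and Ptcra, the pre-T cell receptor alpha chain, by 6 (64 UMIs, 11.8-fold, 7.87 to 17.8), while Rag1 had 1 UMI and Cd3e 16 UMIs in 2 cells. Cd79a was in 7 of 9 cells at 0.32 of the level of the 146 cells, and Jchain, which joins secreted antibodies, in 8 of 9 at 0.39. Among B+myeloid cells without a UMI of 5 B cell genes, Siglech stood at 48.9 CPM, against 263 in the whole label. Cd79a is 1 of these 5 genes, so the cut leaves out the 7 Siglech cells that held it. It keeps the cells with 80 and 2 Siglech UMIs, so the lower level follows from the cut and shows nothing more. The part of B cell RNA or of paired cells was not tested, and no doublets were called or taken out.

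Class II genes were lower in the Siglech cells than in the 146. RT1-Da stood at 1820 against 2949 CPM (0.62, 0.56 to 0.68) and RT1-Bb at 0.37, and none of the 8 antigen presentation genes with at least 20 UMIs reached 3-fold. In the same 9 cells the genes with the largest ratios were Hs3st3a1 (114 UMIs against 1), Kdr, which encodes a VEGF receptor (94.6-fold, in 6 cells), the ribonuclease gene Rnase6 (41.5), Ube2c (34.6, all 67 UMIs in 1 cell), Hs3st1 (31.7), Ncald (26.0), Tex2 (25.9) and Gpm6b (22.1). Hs3st1 was thus among the 8 genes of largest ratio in both sets of cells.

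Batf3 led no thymocyte-library label. B+myeloid stood first at 55.6 CPM (46.6 to 65.9, 133 UMIs in 26 of 170 cells), followed by gdT at 22.4 CPM (61 UMIs in 37 of 128 cells), a ratio of 2.48 (1.82 to 3.42). DN came next at 14.4 CPM (156 UMIs in 93 of 390 cells), DP-P at 5.73 CPM (98 UMIs in 76 of 848) and DP at 2.96 CPM (56 UMIs in 55 of 5202). gdT exceeded DN by 1.56 (1.14 to 2.10) and DN exceeded DP-P by 2.51 (1.94 to 3.27). Batf3 was thus higher in the early DN and gamma-delta cells than in DP-P, and DP-P and DP had AgoSel1 (2 UMIs, 4.52 CPM) between them in the order. The Xcl1 label AgoSel2 held 1 UMI, and Mature CD8-1 held 0 in 91 cells.

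Depth differed along this order, with medians of 19803.5 UMIs in gdT, 23190 in DN, 15439 in DP-P and 3205.5 in DP. Thinned to 1000 UMIs, 4 of 128 gdT cells (3.12%), 1 of 390 DN cells (0.26%), 3 of 848 DP-P cells (0.35%) and 15 of 5164 DP cells (0.29%) kept a UMI. The shares of DN, DP-P and DP rest on 1, 3 and 15 cells, and after thinning the order of DN over DP-P and DP was not seen.

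Batf3 in B+myeloid was not confined to cells with Xcr1 or Clec9a, but most of it was there. The 9 such cells held 87 of 133 UMIs (65.4%), with 1 to 19 per cell and a median of 8. 1 of the 9 cells, with 17 of these UMIs, is in this class by 1 Clec9a UMI. It held 0 of Xcr1, 59 of Fscn1 and 1 of Ccr7, so the split depends on where that cell is placed. Of the other 17 cells, 6 held C1qa of macrophages with 11 Batf3 UMIs, and 5 held Ccr7 or Fscn1, genes of migrating dendritic cells, with 24 Batf3 UMIs and up to 12 in a cell. 5 more held none of these genes, with 10 UMIs, and 1 held Siglech. These classes were drawn after the counts were seen and are not separate cell types. Each cell went to the first class it met, in the order Xcr1 or Clec9a, Siglech, C1qa, then Ccr7 or Fscn1. Of the 6 C1qa cells, 3 also held Fscn1, and 1 held only 1 C1qa UMI.

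In the stroma Batf3 was highest in TEC:mTEC2, at 76.5 CPM (59.3 to 97.2, 67 UMIs in 22 of 61 cells). The 22 cells held 10, 9, 5, 5, 5, 4 and 4 UMIs in the upper 7, and 3, 2 or 1 in the other 15. TEC:mTEC-prol followed at 24.9 CPM (34 UMIs in 19 of 76 cells), a ratio of 3.08 (2.01 to 4.80). TEC:mTEC1 stood at 17.4 CPM (112 UMIs in 53 of 482 cells) and the endothelial label EC:vEC at 16.9 CPM (61 UMIs in 50 of 344). mTEC-prol and mTEC1 did not differ from the label next below each in this order beyond counting error, with ratios of 1.43 (0.94 to 2.11) and 1.03 (0.75 to 1.43).

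Beside these shares, 8 of 3080 TMC2 mesenchymal cells (0.26%) held Batf3 at a median depth of 8269.5, against 36.1% in TEC:mTEC2 at 13378 and 14.5% in EC:vEC at 9585.5. After thinning, 3 of 60 TEC:mTEC2 cells (5.00%), 6 of 340 EC:vEC cells (1.76%), 9 of 476 TEC:mTEC1 cells (1.89%) and 1 of 3079 TMC2 cells (0.03%) held a UMI. Within the wider initial cluster TEC-d, which holds most TEC:mTEC2 cells, Batf3 was at 34.5 CPM.

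Of the 15 other cDC1 genes, 3 had no UMI in TEC:mTEC2. These were Xcr1, Clec9a and Flt3, and 0 of 61 cells allows a share of cells with a UMI of up to 4.92%, which does not limit cells that express them. The other 12 had UMIs in the Batf3 cells. Cadm1 was in 18 of the 22 Batf3 cells and 17 of the 39 others, and Irf8 in 12 and 10, though by level they stood at ratios of 0.74 (0.52 to 1.06) and 1.24 (0.58 to 2.70). Of 22 Batf3 cells 14 held Aire (63.6%, 40.7 to 82.8), as did 26 of the 39 others (66.7%), and 20 held Epcam. Ptprc was in 2 of the 22 cells and C1qa in none. Of 4 cDC1 genes with at least 20 UMIs in the Batf3 cells none stood 3-fold above the other TEC:mTEC2 cells, and the median ratio was 0.84, against 1.17 over the 4329 ranked genes.

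Genes listed for activated dendritic cells were mixed. Of 11 ranked genes, 3 were at least 3-fold higher in the Batf3 cells, where 6.08% of all ranked genes were: Ccl17, a CCR4 ligand (4.08, 2.87 to 5.95, in 5 cells), the costimulatory ligand Cd86 (3.11) and Cacnb3 (5.74), a calcium channel subunit. Their median ratio was 1.88. Ccl22, the other CCR4 ligand, stood at 997 against 537 CPM (1.86), and Cd80 at 153 against 81.4 CPM (1.88). Relb and Il15 stood at 1.03 and 1.09, and Lamp3 and Il12b had 0 UMIs in the Batf3 cells against 5 and 8 in the others. The cells with Batf3 were deeper, at a median of 21544.5 UMIs against 9467, and the part of depth in what they hold was not tested.

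The genes with the largest ratios in the Batf3 cells of TEC:mTEC2 were mostly carried by few cells. Fbp2, a muscle gluconeogenic enzyme, had 114 UMIs in 3 cells, and the cardiac natriuretic peptide genes Nppa and Nppb had 108 in 4 and 461 in 3. Without the highest cell the ratio of Fbp2 went from 55.01 to 3.59 and that of Nppb from 34.2 to 3.38. Apoa1, a liver apolipoprotein, had 91 in 3 and Gzmb, a granzyme, 237 in 3. Slc7a11, a cystine transporter, was in 9 of the 22 cells with 110 UMIs against 1, Ccl20, the CCR6 ligand, in 6 with 142 against 4, and the lectin gene Cd209f in 6 with 163 against 5. Of a list of factors that bind DNA with BATF proteins, drawn up after the Batf3 levels were seen, 3 had 20 UMIs or more: Jun, Junb and Jund, at ratios of 0.43, 0.99 and 0.93. Markers of lymphocytes were uneven: the summed level of the 10 thymocyte genes was 189 CPM in the Batf3 cells and 191 in the others, while Lck stood 6.76-fold (2.02 to 35.4) and Ccl5 3.02-fold higher, with UMIs in 5 and 4 cells. Their part in the result was not tested.

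Siglech also gave 3 UMIs in TEC:mTEC2, 3.43 CPM (0.71 to 10.02). They lay in 2 cells, both with Batf3 (9 and 3 UMIs), Aire (1 and 21) and Epcam (23 and 9). The second cell also held 37 UMIs of the thymocyte genes, 18 of the B cell and 13 of the macrophage list, against 1, 3 and 4 in the first. Their part in the result was not tested. No Siglech UMI was left in that label after thinning.

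The stromal Myeloid label, 505 cells, held few dendritic UMIs. Its Xcr1 level was 3.64 CPM (2.28 to 5.52) on 22 UMIs in 19 cells, of which 16 held 1 UMI and 3 held 2. As the mean of the cells' CPM it was 6.87, and thinned 7.95. The next label, vSMC/PC, held 1 UMI, a ratio of 12.3 (1.99 to 507). The share of cells with Xcr1 was 3.76% (2.28 to 5.81) at a median depth of 9510 UMIs, against 0.065% in TMC2 mesenchyme at 8269.5, and 4 of 503 thinned cells (0.80%) kept a UMI. Clec9a, Siglech and Xcl1 had 0 UMIs, which allows a share of cells with a UMI of up to 0.59%, and Batf3 had 5 UMIs in 4 cells, 0.83 CPM (0.27 to 1.93).

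Most leading genes of the Myeloid label among these lists were neutrophil and monocyte genes. 10 of the 11 monocyte and neutrophil genes led it, where 1.37% of all ranked genes did, with S100a8 in 410 cells (81.2%), Camp in 353 and Mpo, the myeloperoxidase of granule-forming precursors, in 311. Of 14 ranked cDC1 genes, Xcr1 alone led it, none of 13 ranked pDC genes did, 2 of 10 ranked cDC2 genes did, and Flt3 was in 7 cells. C1qa was at 0 UMIs. Ptprc, the gene of the CD45 protein used to remove blood cells in the sort, was in 385 of the 505 cells.

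Cells with Xcr1 in Myeloid held neutrophil genes, at levels that differed from the rest of the label in both directions. S100a8 was in 16 of 19 (84.2%, 60.4 to 96.6) and in 81.1% of the others. Ngp, a granule protein gene, stood 3.75-fold higher (3.57 to 3.93) and was the 1 of 8 ranked monocyte and neutrophil genes to reach 3-fold. S100a9 stood at a ratio of 1.48, Mpo at 0.80 and Elane, neutrophil elastase, at 0.20 (0.16 to 0.24, in 10.5% against 41.8% of cells). Irf8 was in 2 of the 19 cells and Flt3 in none. Of the listed cDC1 genes, 1 (Nfil3) reached 20 UMIs in these cells and stood at a ratio of 1.47 (0.93 to 2.21), where 1.72% of 1394 ranked genes reached 3-fold. The genes of largest ratio were Mmp9, a gelatinase of neutrophil granules (30.8-fold, 47 UMIs in 3 cells), Mmp8, the neutrophil collagenase (13.8, in 4 cells), Slpi (13.6), Bmx (8.03) and the inflammasome gene Nlrp3 (7.22). Without the cell highest in each gene these ratios were 7.02 (3.16 to 14.1), 8.69, 8.65, 5.02 and 5.13. Around the 4 Batf3 cells, none of the other cDC1 genes reached 20 UMIs, and 9.19% of 468 ranked genes stood 3-fold higher.

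The thymocyte library's B+myeloid label differed from Myeloid in these lists, each library ranked on its own. 8 of its 15 ranked cDC1 genes led it, as did 7 of 13 pDC, 11 of 11 macrophage and 7 of 8 B cell genes, and none of 10 thymocyte genes. Of all ranked genes 7.97% led B+myeloid and 1.37% Myeloid, so the counts of the labels have different baselines. Among the cDC1 genes, Flt3 stood at 107 CPM and Irf8 at 330 CPM in B+myeloid, against 2.15 and 48.5 CPM in Myeloid. The libraries differ in enzyme, sort and depth, so the labels cannot be told apart from their libraries.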

How the data were processed

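2 droplet single-cell libraries were used, each 1 sample with no replicate. The matrices hold UMI counts per gene and barcode as deposited by the authors; per the file headers they come from Cell Ranger 8.0.0. Seurat 5.3.0 and mRatBN7.2 are named in the submitters' processing notes without a role; read assignment settings are not given in the sources used here. The authors' deposited cell tables hold the labels and a percent of mitochondrial counts per cell, which no result uses. Cells were taken with their projected label, or else their initial cluster; barcodes without annotation were left out, and doublets were neither called nor taken out. A spatial section was not analysed here.

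UMIs were summed per label of at least 20 cells and divided by the label's total (CPM). Levels have exact Poisson, shares Clopper-Pearson and ratios exact binomial intervals, all at 95%; a share at 0 has the limit that 3 counts of the total give. Genes were ranked from 20 UMIs, ratios against 0 UMIs used a floor of 3, and cells were thinned to 1000 UMIs (seed 7). The ranking was tested on Poisson counts drawn per label with 200 genes raised 8-fold, of which 165 led Myeloid and 189 B+myeloid. Between sets of cells within each of these labels, 200 of 200 raised genes were found. Such counts have no spread between cells, so the simulation does not cover a level that sits in a single cell.

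The members and lists were chosen with earlier results of these data known. Named genes are the members, list genes leading a label or high in cells with a member, the 8 genes (50 UMIs or more) of largest ratio in cells with a member, and the 5 genes most correlated with Xcl1. The 8-gene rule outside Myeloid, the BATF partner list and leaving out the top cell were added after seeing the data. Windows came from RefSeq on GRCr8. Figures were drawn with matplotlib 3.10.9, and values computed in Python 3.11.15 with pandas 2.3.3, SciPy 1.17.1 and NumPy 2.4.6.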

Additional observations from a re-analysis of the deposited data

Results flagged for a closer look

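Batf3 was also seen in stromal barcodes that carry no label and enter none of the comparisons: 63 UMIs in 37 of 2934 barcodes, 7.27 CPM (5.59 to 9.30). Of these UMIs, 30 were in 14 of the 67 barcodes with more genes than any annotated cell (over 6999), and 8 of the 37 barcodes also held Aire. What these barcodes are was not tested.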

How the results depend on the processing

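Of 111 recomputed values, 75 stayed within the counting interval of the reported level (for counts of genes, within 1.5 times) and 36 did not; the cause was not tested. Xcl1 in AgoSel2 (333 CPM) was 237 as the mean of the cells' CPM, 504 over a total without mitochondrial, ribosomal and haemoglobin genes, 224 thinned, 34.8 in the initial cluster Mature SP and 72.4 without its top cell. Xcl1 in TEC:mTEC2 (23.99 CPM) was 50 thinned, 3.47 in the initial cluster TEC-d and 9.41 without its top cell. It was 0 among cells with fewer than 3 UMIs of the thymocyte genes, a cut that leaves out both of its Xcl1 cells. For B+myeloid, the mean of cells, the reduced total, thinning and cells without B cell genes gave 32.2, 65.3, 30.9 and 70.96 for Xcr1 (49.8), 31.6, 73.04, 37.04 and 67.98 for Batf3 (55.6), 22.8, 52.2, 18.5 and 56.1 for Clec9a (39.7), and 154, 345, 216 and 48.9 for Siglech (263). The cut on B cell genes leaves out 7 of the 9 Siglech cells, those with Cd79a, so its Siglech level is fixed by the cut. Without the top cell Clec9a was 27.9 and Siglech 225. Xcr1 in Myeloid (3.64) was 6.87 as the mean of cells and 7.95 thinned, and Batf3 there (0.83) was 1.99 thinned. Batf3 in TEC:mTEC2 (76.5) was 34.5 in TEC-d and 55.4 among cells without thymocyte-gene UMIs. Siglech there (3.43) was 0 thinned and 0.50 in TEC-d. It was 0 among cells without thymocyte-gene UMIs, which leaves out both of its Siglech cells. The cut of fewer than 3 given for Xcl1 differs, as it keeps the cell with 2 Siglech UMIs, which held 1 thymocyte-gene UMI. Stromal genes leading 1 label fell from 1241 to 730 at 5-fold.

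No paired analysis was possible because there was 1 library per group and nothing to pair. Several values rest on 1 to 15 cells, and shallow labels such as DP limit what a count of 0 shows. Free RNA in droplets and joined cells were not modelled.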
